A study of Mus musculus with 12 samples.

Results

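The BTG and TOB antiproliferative genes of the mouse were followed in slices of auditory cortex, with 5 members: Btg1, Btg2, Btg3, Tob1 and Tob2. Members were chosen by name, as the loci carrying one of these symbols among the 20989 loci for which the 12 libraries give an FPKM, a number of fragments divided by transcript length and by library depth. The symbol Btg3 stands at 2 loci, so that the 5 genes correspond to 6 loci. The relative Btg4, a gene known from oocytes, was listed at 0 FPKM in all 12 libraries.

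Proteins of the family share an N-terminal BTG domain that binds the deadenylases Cnot7 and Cnot8, the enzymes of the CCR4-NOT complex that shorten the poly(A) tail of mRNA. TOB proteins also carry short motifs for the cytoplasmic poly(A)-binding protein, and in this way the family brings deadenylases to mRNA and shortens its life. Raised levels slow the passage of dividing cells from G1 into S phase, from which the name antiproliferative derives. In the nervous system, Btg2 (also PC3 or Tis21) is known as an early gene induced by nerve growth factor and as a mark of progenitors about to give rise to neurons, while Btg1 is known to hold adult neural stem cells in quiescence.

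Slices came from 6 mice of the strain C57bl6/J that were 4 weeks old, and the labels name no transgene. After recovery for 15 min in a choline chloride buffer, each slice was divided at the midline, and both hemispheres rested for 45 min in artificial cerebrospinal fluid (aCSF). In the control group (n = 6), 1 hemisphere of every mouse then stayed in fresh aCSF for 1 h. In the cocktail group (n = 6), the other hemisphere spent the same 1 h in aCSF with 50 µM (-)-Bicuculline methiodide, which blocks GABA-A receptors, 50 µM Carbamolylcholine chloride, an agonist of acetylcholine receptors, and the transmitters DL-Norepinephrin hydrochloride, Dopamine hydrochloride and Serotonin hydrochloride at 100 µM each, with Ascorbic Acid at 40 µM. Per the methods of the study, hemispheres of both groups rested for 1 h more in aCSF before the auditory cortex was dissected and its polyadenylated RNA sequenced in single reads of 50 bases. The comparison asks how the cocktail, which was used to drive neuronal activity, changes gene expression within a mouse.

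Reads counted at the loci numbered 10601067 to 19768881 in control and 13544297 to 17643462 in cocktail slices, as recovered from the confidence intervals of the FPKM values. The methods of the study give a higher range for the reads sequenced per sample. Control library 1 was the deepest and had the lowest size factor by the median of ratios (0.905, against 0.981 to 1.05 in the other 11), and Btg2, for which it held the lowest value, is given with and without it. As in every tissue homogenate, fewer cells of a type and less RNA per cell cannot be told apart. Markers of excitatory neurons summed to 2382 to 2847 FPKM and those of blood to at most 1.77 FPKM. A list for striatum and choroid plexus summed to 21.7 to 33.0 FPKM. Most of that sum was Ppp1r1b alone, with means of 22.9 FPKM in control and 22.5 FPKM in cocktail slices. Every other gene of that list averaged at most 3.10 FPKM in either group.

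Where the genes begin, their sequence differed in the motifs known for regulation by neuronal activity. The 250 bases before the RefSeq start are shown for the 4 members with a level high enough to be tested, 5′ to 3′ on the strand of the gene (RefSeq, build GRCm38.p6, the assembly of mm10). The windows are chr1:134079156-134079405 (minus strand) for Btg2, chr10:96616751-96617000 (plus) for Btg1, chr11:94211204-94211453 (plus) for Tob1 and chr15:81858327-81858576 (minus) for Tob2, and each lies directly before the locus of the files. Capitals mark matches to the cyclic AMP response element (CRE, TGACGTCA), to its core (TGACG, which is part of every CRE) and to a site of the Egr factors (GCGNGGGCG), searched on both strands.
Btg2: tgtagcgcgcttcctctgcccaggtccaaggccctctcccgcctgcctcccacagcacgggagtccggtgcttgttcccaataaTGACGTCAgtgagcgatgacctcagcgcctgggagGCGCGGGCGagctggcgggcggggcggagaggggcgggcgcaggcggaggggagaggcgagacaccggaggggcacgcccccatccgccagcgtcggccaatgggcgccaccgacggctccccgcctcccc
Btg1: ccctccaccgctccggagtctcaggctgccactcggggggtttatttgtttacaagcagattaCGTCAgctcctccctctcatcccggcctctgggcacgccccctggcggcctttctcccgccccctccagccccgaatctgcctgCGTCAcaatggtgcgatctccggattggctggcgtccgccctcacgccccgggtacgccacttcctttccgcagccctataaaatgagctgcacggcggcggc
Tob1: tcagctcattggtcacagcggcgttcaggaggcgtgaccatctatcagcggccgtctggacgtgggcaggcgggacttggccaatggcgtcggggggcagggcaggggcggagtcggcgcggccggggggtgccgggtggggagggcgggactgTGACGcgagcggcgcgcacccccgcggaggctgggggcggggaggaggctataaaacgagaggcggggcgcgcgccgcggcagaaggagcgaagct
Tob2: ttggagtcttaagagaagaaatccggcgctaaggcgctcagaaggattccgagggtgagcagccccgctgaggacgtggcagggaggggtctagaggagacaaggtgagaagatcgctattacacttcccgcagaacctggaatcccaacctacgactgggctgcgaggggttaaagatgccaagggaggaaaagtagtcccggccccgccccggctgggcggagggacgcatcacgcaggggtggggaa

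The Btg2 window held 1 full CRE, 166 to 159 bases before the start, and 1 Egr site, 131 to 123 bases before it. Of 32851 windows of the same length, 1.55% held a CRE and 4.7% an Egr site. Btg1 held 2 cores on the opposite strand, where they are printed as CGTCA, at 187 to 183 and at 103 to 99 bases before the start, and Tob1 held 1 core at 96 to 92 bases before it. A core stood in 17.8% of the windows. None of the 3 motifs was found in the window of Tob2 or in the 2 windows listed for Btg3. An AP-1 site (TGANTCA, in 6.75% of windows) or a CArG box, the element of the serum response factor (1.47%), was found in no window of a member. GC content was 73.2% for Btg2, 73.6% for Tob1, 65.2% for Btg1 and 60.4% for Tob2, against a median of 52.4% over all windows. A match is a description of the letters and no evidence of binding.

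Btg1, Btg2, Tob1 and Tob2 were higher in the cocktail hemisphere of all 6 mice, while Btg3 was close to the detection limit and was higher in 3 of 6. Of the 12032 loci with a mean of at least 1 FPKM, which were tested with limma on log2(FPKM + 1) with the mouse as a block, 1.5% were called at an adjusted p under 0.05 (1.22% higher and 0.274% lower in cocktail), 8.05% passed 0.05 without adjustment, and 3.64% had a positive difference in 6 of 6 mice. The 4 members that passed this filter did so in control slices as well, with control means of 12.2 FPKM or more, and all 4 were called higher. Their median log2 fold change was 0.53, against 0.01 over all loci tested. Ranked by fold change among these loci, Btg2 stood at place 2, Tob1 at 46, Btg1 at 67 and Tob2 at 226.

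**Figure D1:**
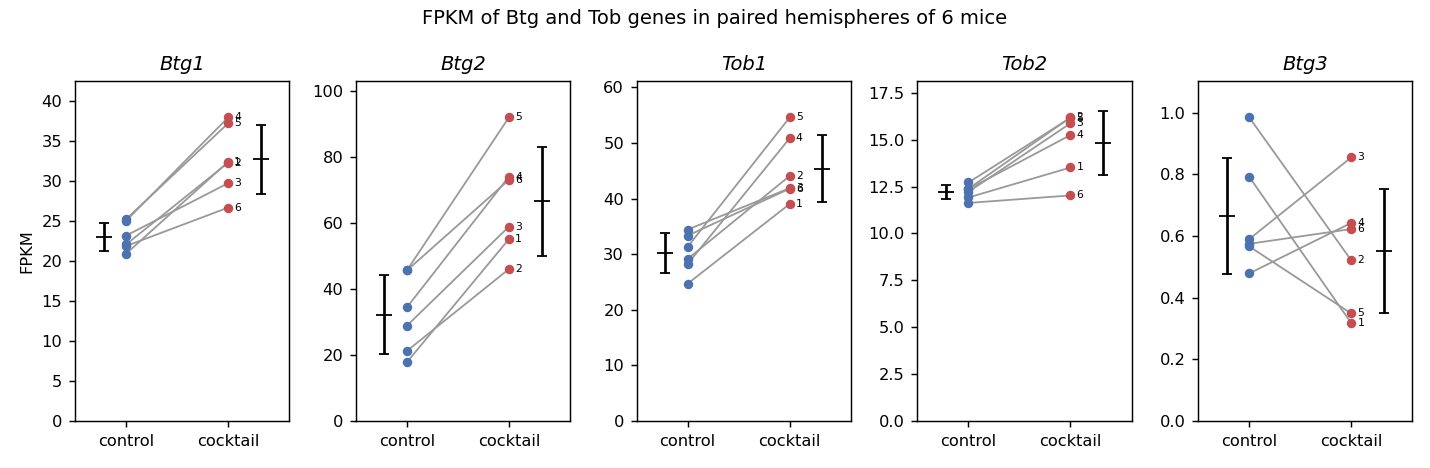
FPKM of each member (y axes, different scales, from 0) in the control and cocktail hemispheres of 6 mice. Each point is a library, lines join the hemispheres of a mouse, numbers name the mouse, and bars give mean ± SD (n = 6). All lines rise for Btg1, Btg2, Tob1 and Tob2, from 23.0 to 32.7, 32.2 to 66.5, 30.2 to 45.4 and 12.2 to 14.8 FPKM on average, and for Btg3 they cross below 1 FPKM.

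Btg2 (chr1:134074865-134079155, mm10), a target of p53 and of growth factor signals in other cells, showed the largest change of the family. Control slices ranged from 17.8 to 45.6 FPKM with a median of 31.6, and cocktail slices from 46.0 to 91.9 FPKM with a median of 65.9. The groups did not overlap, but only just, since the highest control library (45.6) and the lowest cocktail library (46.0) came from different mice. Within mice the separation was wide. The level rose 1.602-fold to 3.097-fold, from 32.2 ± 11.9 to 66.5 ± 16.5 FPKM on average (SD, n = 6), a ratio of means of 2.06. On the log2(FPKM + 1) scale the fold change was 1.07 (SE 0.088, 95% interval 0.88 to 1.26, limma adjusted p = 3.86e-05). The within-mouse differences had an exact two-sided sign-flip permutation p of 0.03125, the smallest that 6 mice allow.

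Btg2 also varied widely between mice in control slices. The coefficient of variation over the control libraries was 36.8%, against 7.67% for Btg1, 11.9% for Tob1, 3.16% for Tob2 and 28.3% for Btg3, whose values rest on few reads. On the log2 scale its control SD of 0.545 was larger than that of 99.8% of the loci tested, whose median was 0.139. Without control library 1, which held the lowest value, the coefficient was 30.3% for Btg2 and 31.0% for Btg3, and the SD of Btg2, 0.454, was larger than that of 99.7% of loci. Control values were 17.8, 21.2, 28.8, 34.4, 45.6 and 45.6 FPKM in mice 1 to 6, and the paired cocktail values were 55.0, 46.0, 58.8, 74.0, 91.9 and 73.0 FPKM. Both hemispheres of mouse 5 were thus at or near the top of their group, and both of mouse 2 were near the bottom. The control libraries of mice 1 to 6 held 19768881, 16350615, 15627274, 13933211, 14221252 and 10601067 recovered reads. In control slices Btg2 thus tended to be higher in the shallower libraries, and the part of depth in this spread was not tested. In mouse 1 the lowest control value stood beside a cocktail value that was not the lowest, and the difference was the largest, 1.58 on the log2 scale. After scaling by the median of ratios, which raises the values of control library 1, that difference was 1.47, and without mouse 1 the fold change was 0.97 (limma adjusted p = 2.02e-05).

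Btg1 (chr10:96617001-96622811), which like Btg2 consists of little more than the BTG domain and binds the arginine methyltransferase Prmt1, rose by less. Control slices ranged from 20.9 to 25.2 FPKM with a median of 22.6, and cocktail slices from 26.6 to 37.9 FPKM with a median of 32.3. The groups did not overlap. The mean went from 23.0 ± 1.77 to 32.7 ± 4.32 FPKM (SD, n = 6), a ratio of 1.42, and the log2 fold change was 0.48 (SE 0.055, 95% interval 0.36 to 0.60, limma adjusted p = 0.000505). Within mice the log2 difference was 0.61, 0.53, 0.35, 0.58, 0.54 and 0.28 in mice 1 to 6. The exact sign-flip permutation p was 0.03125. Mice 3 and 6 rose least and the other 4 lay within 0.08 of each other. The differences of Btg1 had an SD of 0.136 around a mean of 0.481, and those of Btg2 0.293 around 1.069.

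Tob1 (chr11:94211454-94215492), a negative regulator of BMP signaling through Smad proteins, was at the level of Btg2 in control slices. Its control values ranged from 24.7 to 34.4 FPKM with a median of 30.2, and its cocktail values from 39.0 to 54.6 FPKM with a median of 43.0. Again no cocktail library reached down to a control library. The mean went from 30.2 ± 3.58 to 45.4 ± 6.03 FPKM (SD, n = 6), a ratio of 1.503, with a log2 fold change of 0.57 (SE 0.074, 95% interval 0.41 to 0.73, limma adjusted p = 0.00132, exact sign-flip permutation p = 0.03125). The differences fell into a wide range, 0.64, 0.58, 0.28, 0.83, 0.78 and 0.32 in mice 1 to 6. Mice 4 and 5 rose most and mice 3 and 6 least.

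Complete separation of the groups was thus seen for Btg1, Btg2 and Tob1. Over all loci tested, 0.715% had every cocktail library above every control library.

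Tob2 (chr15:81848270-81858326), the close relative of Tob1, had the smallest rise of the 4 and did not pass in all fits. Control slices held a narrow range, 11.6 to 12.7 FPKM with a median of 12.3, and cocktail slices reached from 12.03 to 16.2 FPKM with a median of 15.6. The groups overlapped through 1 library, since the cocktail hemisphere of mouse 6 (12.03 FPKM) lay inside the control range and the other 5 lay above it. The control SD on the log2 scale was smaller than that of all but 1.31% of the loci tested. The mean went from 12.2 ± 0.386 to 14.8 ± 1.70 FPKM (SD, n = 6), and the log2 fold change was 0.26 (SE 0.055, 95% interval 0.14 to 0.38, limma adjusted p = 0.0428, exact sign-flip permutation p = 0.03125). Without the mouse as a block the fold change was the same but the limma adjusted p was 0.155, and in 10 of 15 alternative fits, among them those without mouse 2, 3, 4 or 5, the call was lost, with adjusted p up to 0.196.

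**Figure D2:**
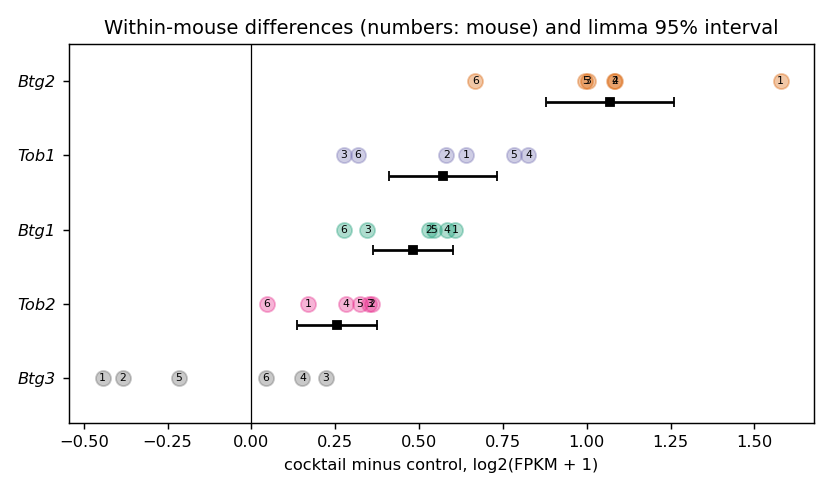
Within-mouse difference, cocktail minus control, in log2(FPKM + 1) for each member (x axis). Numbered points are mice 1 to 6, and black squares with bars are the limma fold change with its 95% interval for the 4 members tested. Btg2 lies to the right of the others (1.07), Tob1 (0.57) and Btg1 (0.48) overlap, Tob2 (0.26) is closest to 0 and Btg3 has points on both sides.

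Btg3 (chr16:78359860-78377181), which is known to bind the transcription factor E2F1, was barely detected. Control libraries held 0.479 to 0.985 FPKM with a median of 0.583, and cocktail libraries 0.317 to 0.855 FPKM with a median of 0.572. These values rest on 9 to 30 reads per library, and the groups overlapped widely. The mean was 0.665 ± 0.188 FPKM in control and 0.551 ± 0.201 FPKM in cocktail slices (SD, n = 6). The mean within-mouse difference was -0.10 on the log2(FPKM + 1) scale (SD 0.283), with an exact sign-flip permutation p of 0.40625, so a change of Btg3 was not detectable at this depth. Of the 50-base stretches of its transcript, 51.8% also occur in the pseudogene Gm7334 on chromosome 17, where the second locus with the symbol Btg3 lies, and some of its exons overlap those of Cxadr on the opposite strand. The methods of the study describe the reads as strand specific, and whether strand entered the FPKM was not given. For Btg1 the share of stretches found in another gene was 2.63% (Gm14519) and for Tob2 3.9% (the antisense gene Gm49476), and for Btg2 and Tob1 it was 0. Reads with more than 1 placement were restricted in the alignment, so the level of Btg3 is uncertain.

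In control slices, FPKM, which is per length, put Btg2 and Tob1 first without a difference beyond their spread. Btg2 was above Tob1 in 3 of 6 libraries, with a mean log2 difference of 0.01 (exact sign-flip permutation p = 0.90625). Tob1 was above Btg1 by 0.39, Btg1 above Tob2 by 0.91 and Tob2 above Btg3 by 4.24 on the log2 scale, each in 6 of 6 libraries (exact permutation p = 0.03125 for each). In cocktail slices the order was the same, but Btg2 now stood above Tob1 in 6 of 6 libraries, by 0.52 on the log2 scale (exact permutation p = 0.03125).

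Whether members differed in response was tested directly, on the within-mouse differences of all 10 pairs. Btg2 rose more than each of the other members in 6 of 6 mice, by 0.50 over Tob1 (95% interval 0.20 to 0.80), 0.59 over Btg1 (0.37 to 0.81) and 0.81 over Tob2 (0.50 to 1.13). The exact sign-flip permutation p was 0.03125 for each, and 0.0446 when adjusted over the 10 pairs. This adjusted value depends on how many pairs reach 0.03125, the smallest p that 6 mice allow. Of the 10 pairs 7 did, among them the 4 with the barely detected Btg3. No difference was found between Tob1 and Btg1, with a mean of 0.09 (95% interval -0.04 to 0.22, exact permutation p = 0.15625, adjusted 0.156), an interval that leaves room for a difference in either direction. Tob1 exceeded Tob2 by 0.32 (0.08 to 0.56) and Btg1 exceeded Tob2 by 0.23 (0.07 to 0.38), each in 5 of 6 mice, and both missed the threshold with an exact permutation p of 0.0625 and an adjusted value of 0.0694. The 4 differences from Btg3 had p = 0.03125 in the same exact test, but 3 of them, those of Tob1, Btg1 and Tob2, lost the call when the pseudocount was 0.1.

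Mouse 6 showed the smallest rise for Btg1, Btg2 and Tob2 and the second smallest for Tob1. The same mouse stood out over many genes. Among the 147 loci called higher, 101 (68.7%) had their smallest difference in mouse 6, and the median difference over these loci was 0.24 in mouse 6 and 0.46 to 0.61 in the other mice. Without mouse 6 the fold changes were 0.52 for Btg1, 1.15 for Btg2, 0.62 for Tob1 and 0.30 for Tob2, and all 4 were called.

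The genes through which the family is known to act were then examined. Over all loci tested 1.5% were called, so 0 calls in a list this short are near that share. Of 11 subunits of CCR4-NOT, 0 were called by limma, 0 by voom and 0 passed 0.05 without adjustment, with a median log2 fold change of -0.02 and a range of -0.10 to 0.10. The largest value belonged to Cnot7, a deadenylase bound by BTG and TOB proteins, at 36.6 ± 4.68 FPKM in control and 39.1 ± 2.09 FPKM in cocktail slices (log2 fold change 0.10, 95% interval -0.04 to 0.24, limma adjusted p = 0.783). Of 7 genes tested for the PAN2-PAN3 deadenylase and poly(A)-binding proteins, 0 were called by either fit and 0 passed 0.05 without adjustment, with Pan2 farthest from 0 (-0.10, limma adjusted p = 0.752). These counts were also 0 for 9 partners of the proteins, among them Prmt1, the Smad genes and Carm1, where Carm1 had the largest value (-0.08, limma adjusted p = 0.77).

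In a list of 16 other factors of mRNA decay, 2 were called higher and 0 lower, 6 passed 0.05 without adjustment, and the median log2 fold change was 0.05. Both encode zinc finger proteins that bind AU-rich elements and, like the BTG and TOB proteins, recruit CCR4-NOT. Zfp36, also called tristetraprolin, went from 47.2 ± 12.4 to 55.9 ± 13.7 FPKM (log2 fold change 0.24, SE 0.045, limma adjusted p = 0.018), and Zfp36l2 from 16.9 ± 2.24 to 20.7 ± 1.55 FPKM (0.28, SE 0.058, limma adjusted p = 0.0346). The third member of their family, Zfp36l1, had a value of 0.27 with a limma adjusted p of 0.0578, and it is named after its value was seen. Without the mouse as a block, with voom on the recovered reads, without mouse 3 and without mouse 5, 0 of the 16 were called, and 1 was called without any other mouse. With libraries scaled by the median of ratios or by quantiles 3 were called.

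For genes of cell division, the process the family is named for, no call was made by limma or voom. With 1.5% of all loci called by limma, this too is near the general share. In the list for the step from G1 to S phase, 0 of 17 were called, 2 passed 0.05 without adjustment and the median was 0.02, with Cdkn2d, an inhibitor of cyclin D kinases, farthest from 0 (25.1 ± 2.40 to 22.3 ± 2.09 FPKM, -0.16, limma adjusted p = 0.429). The 2 that passed were Cdkn2d and Cdkn1a, and Cdkn1a went the other way (41.2 ± 9.27 to 44.7 ± 9.95 FPKM, 0.11, limma adjusted p = 0.515). Of 14 proliferation markers, 8 were under the filter and 0 of the other 6 were called, with 1 at an unadjusted p under 0.05. The largest value was that of Pcna, the sliding clamp of DNA polymerase, which went from 42.8 ± 2.31 to 50.4 ± 7.50 FPKM (0.22, limma adjusted p = 0.385), and in the fit without mouse 6, 1 of the 6 was called. Mki67, the marker of cycling cells and under the filter, stood at 0.209 ± 0.0487 and 0.213 ± 0.0427 FPKM. In a list of 8 genes named for the p53 and CREB pathways, which also holds the growth factor regulators Srf and Elk1, 0 were called by limma or voom, 2 passed 0.05 without adjustment and the median was -0.07, with Srf, the serum response factor, farthest from 0 at 0.18 (limma adjusted p = 0.148).

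**Figure D3:**
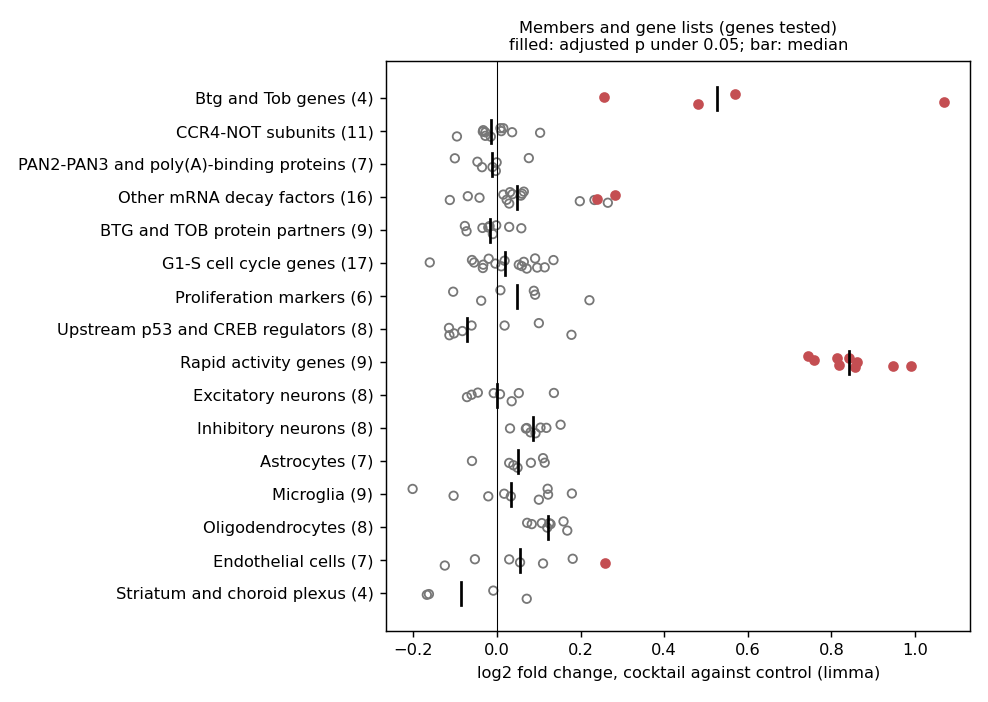
Log2 fold change, cocktail against control (x axis, limma), of the 4 Btg and Tob genes tested and of the genes tested in each list (number in brackets). Each point is a gene, filled where the adjusted p is under 0.05, and vertical bars are medians. The family has its median at 0.53 and the rapid activity genes at 0.84, while the CCR4-NOT subunits (-0.02) and the G1-S genes (0.02) lie on both sides of 0, and the 8 inhibitory (0.09) and 8 oligodendrocyte markers (0.12) all lie above it.

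As a measure of the response of the slices, 9 rapid activity genes, the transcription factors and early genes known to follow neuronal firing within minutes, were set beside the family. The list was chosen with results of these libraries known. All 9 were called higher, with a median of 0.84 and a range of 0.75 to 0.99. Fos rose from 321.9 ± 69.6 to 632 ± 79.5 FPKM (0.99, limma adjusted p = 2.92e-05) and Ier2 from 44.9 ± 9.66 to 86.9 ± 14.8 FPKM (0.95, limma adjusted p = 1.2e-05). The fold change of Btg2 (1.07) lay above the range of these genes, and those of Tob1, Btg1 and Tob2 lay below it. This order is a description without a test, and the 95% intervals of Btg2 (0.88 to 1.26) and Fos (0.82 to 1.16) overlapped. Without mouse 1, Btg2 had 0.97 and the 9 genes 0.73 to 0.93. Each comparison uses the same control libraries.

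Marker lists of cell types were set beside these values, and for them as well 0 calls are near the 1.5% of all loci tested. Of 8 markers of excitatory neurons, 8 of inhibitory neurons, 7 of astrocytes, 9 of microglia and 8 of oligodendrocytes, 0 were called by limma or voom, and 0 of 4 tested for striatum and choroid plexus. Without adjustment, the microglial marker Trem2 (0.18) and the oligodendrocyte marker Pdgfra passed 0.05 and 0 of the others. Of the 9 microglial markers, 6 had a positive fold change (median 0.03). Farthest from 0 were Neurod6 (0.14) among excitatory markers, Dlx1 (0.15) among inhibitory ones, Gfap (0.11) in astrocytes, Cx3cr1 (-0.20) in microglia, Pdgfra (0.17) in the oligodendrocyte lineage and Adora2a (-0.17) for striatum, with limma adjusted p from 0.387 to 0.845. All 8 inhibitory markers (median 0.09) and all 8 oligodendrocyte markers (median 0.12) had a positive fold change, against 54.4% of all loci tested. Their summed levels overlapped between groups, with 490.7 to 552 FPKM in control and 522 to 569 FPKM in cocktail slices for the first and 2007 to 2575 against 2312 to 2656 FPKM for the second. Of 7 endothelial markers 1 was called, the glucose transporter Slc2a1, which went from 63.5 ± 5.67 to 76.0 ± 4.28 FPKM (0.26, limma adjusted p = 0.0144), a value as large as that of Tob2. Its call, too, was lost without the mouse as a block, with voom and without mouse 3 or mouse 4. The summed endothelial level was 117 to 132 FPKM in control and 134.8 to 145.9 FPKM in cocktail slices, without overlap, and no endothelial marker was at 0. Without Slc2a1 the sum of the other 6 was 59.4 to 65.4 FPKM in control and 57.2 to 69.2 FPKM in cocktail slices, and these ranges overlapped. Their fold changes ran from -0.13 to 0.18, the highest being that of Cdh5, a cadherin of vessel walls (95% interval 0.07 to 0.30, limma adjusted p = 0.197). Slc2a1 and Cdh5 were the 2 of 7 that passed 0.05 without adjustment. The part of these cells in the rise of the family was not tested.

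Across the 12 libraries, deviations from the mean of the own group describe which genes varied together between mice. These are Pearson correlations without a test, over libraries that share mice in pairs and differ in depth. Btg2 and Tob1 (r = 0.66), Btg1 and Tob2 (0.62) and Btg1 and Tob1 (0.60) had the highest values among the members, and Btg2 and Tob2 had -0.02. Btg1 and Tob1 had 0.31 in control and 0.77 in cocktail libraries, Btg2 and Tob1 0.67 and 0.70, and Btg1 and Tob2 0.75 and 0.63. The loci most like Btg2 among all tested were Nxph1 (r = 0.98), Maged2 (0.98) and Meis2 (0.97). For Btg1 they were Maml1 (0.92), Rbm7 (0.91) and Esd (0.90), for Tob1 Dtwd2 (0.92), Rcan3 (0.90) and Grtp1 (0.88), and for Tob2 Sh3gl1 (0.88), Oser1 (0.87) and Smn1 (0.85). For Btg3, Olfml2b (0.89), Cnot11 (0.85) and Apobec3 (0.77) came first, at 9 to 30 reads for Btg3 itself. Of these 15 loci, 0 were called between cocktail and control by limma or voom and 3 passed 0.05 without adjustment. They were picked as the highest of all loci tested, so high values follow in part from that choice. Sh3gl1 and Tob2 had r = 0.44 in control and 0.97 in cocktail libraries, the widest gap among the 15.

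**Figure D4:**
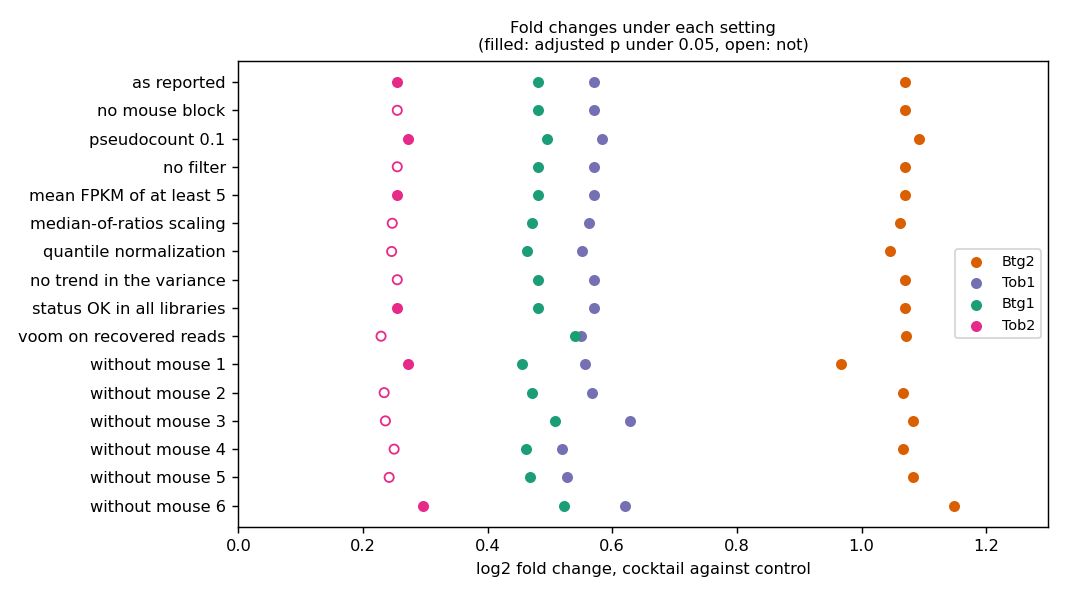
Log2 fold change (x axis) of Btg2, Tob1, Btg1 and Tob2 as reported and in 15 alternative fits (rows), filled where the limma adjusted p is under 0.05 and open where it is not. Btg2 (0.97 to 1.15), Tob1 (0.52 to 0.63) and Btg1 (0.46 to 0.54) are filled in every row, and Tob2 (0.23 to 0.30) is open in 10 of the 15 alternatives.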

How the data were processed

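The authors removed ribosomal reads with BWA 0.6.1, aligned the rest to mm10 with TopHat 1.4.1, keeping at most 1 placement of a read, and derived FPKM by Cufflinks 1.3.0, with bias correction and only fragments of protein coding genes in the denominator. The libraries were directional and the reads strand specific per the methods. How reads with tied placements were handled, and whether Cufflinks was set to use the strand, is not given in the sources used here. These FPKM values were deposited by the authors for each library with an interval, from which reads were recovered (82.8% of 36412 values under 20 reads were whole within 0.05, so intervals cover counting error only). The authors' DESeq2 comparison, a table of mean counts, fold changes and p-values, was not used.

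Loci with a mean of at least 1 FPKM over the 12 libraries were analyzed as log2(FPKM + 1). The model of limma 3.58.1 (R 4.3.3) held terms for mouse and treatment and let the variance follow a trend, and p-values were adjusted by Benjamini-Hochberg over all loci tested, at a threshold of 0.05. For single differences the signs of the 6 mice were flipped in an exact permutation test (two-sided). The fit was tested on simulated data. The members, lists and tests were chosen with earlier results of these data known. From each list, every gene called was named, or the 2 with the largest rise and fall where more than 4 were called, or the gene farthest from 0 where none was, and for each member the 3 loci most like it. Outside this rule, Zfp36l1, Mki67, Cdh5, Elk1, Trem2 and Cdkn1a were named after their values were seen. The spread without control library 1 was an alternative chosen after seeing the data. The mouse number in the labels pairs the hemispheres. Deviations from the group mean correlated at 0.216 to 0.406 within the 6 mice (across loci, which are not independent replicates), against -0.42 to 0.445 (median -0.07) over 30 pairs of different mice. Libraries of a group differed by a chi-square per gene of 7.80 or more, so none was a copy. Promoters are from RefSeq, GRCm38.p6, and exon overlaps from GENCODE. In the 15 groups of 6 values for the members, 0 values stood apart by Dixon's criterion. Figures were drawn with matplotlib 3.10.9.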

Additional observations from a re-analysis of the deposited data

How the results depend on the processing

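The number of loci called was 180. Without the replicate block it was 88, with voom on the recovered reads 118, and with each mouse left out in turn 104 to 181, the lowest without mouse 4. Btg1, Btg2 and Tob1 were called in all 15 alternatives, with limma adjusted p of at most 0.0057, 0.0216 and 0.0171. The highest value for Btg2 was that without the block, which pairs the hemispheres. Tob2 was called in 5 of 15. It lost the call without the replicate block (log2 fold change 0.26, limma adjusted p = 0.155), without a filter (0.26, 0.0949), with quantile normalization (0.25, 0.0715), with libraries scaled by the median of ratios (0.25, 0.0627), without a trend in the variance (0.26, 0.0545) and with voom (0.23, 0.194). With a mouse left out its fold change was 0.23 to 0.30, and the call was lost without mouse 2, 3, 4 or 5. The call was kept without mouse 1 (limma adjusted p = 0.0363) and without mouse 6 (0.0247). Without a filter more loci were tested and entered the fit, and with a mouse left out there were fewer samples. What cost Tob2 the call in any of these fits was not tested. The difference from Btg3 missed the threshold with a pseudocount of 0.1 for Tob1 (0.84, exact permutation p = 0.0625), Btg1 (0.75, p = 0.0625) and Tob2 (0.53, p = 0.25), and for Tob2 with quantile normalization (0.36, p = 0.0625). With 5 mice the exact test cannot go below 0.0625. No result changed its direction in a called value. A mean of at least 5 FPKM gave no value for Btg3, whose 9 to 30 reads per library limit what can be seen.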

Other observations

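The spread of Btg2 between mice went along with the level of most of the 15 lists tested, for several of them mainly in control libraries. Over the 12 libraries, its deviations from the group mean correlated with the mean deviation of a list at r = 0.86 for the 9 rapid activity genes, 0.85 for the 8 p53 and CREB regulators, 0.82 for the 9 protein partners, 0.79 for the 7 endothelial markers, 0.78 for the 16 other decay factors and 0.76 for the PAN2-PAN3 list. Excitatory neurons had 0.70, inhibitory neurons 0.67, microglia 0.64, G1-S genes 0.55, proliferation markers 0.45 and CCR4-NOT 0.44, and the lowest values were those of astrocytes (0.12), striatum and choroid plexus (0.06) and oligodendrocytes (-0.08). Without mouse 1, chosen after seeing the data, the values over 10 libraries were 0.88 for the rapid activity genes, 0.83 for endothelial markers, 0.51 for excitatory neurons and -0.50 for CCR4-NOT. In cocktail libraries alone, with mouse 1, the rapid activity genes had 0.68 and in control libraries 0.94. PAN2-PAN3 had 0.92 in control and 0.20 in cocktail libraries, excitatory neurons 0.91 and 0.17, and G1-S genes 0.67 and 0.16. For CCR4-NOT (0.61 and -0.40) and astrocytes (0.54 and -0.52) the sign was reversed. Endothelial markers (0.952 and 0.835), other decay factors (0.87 and 0.73), protein partners (0.84 and 0.78) and microglia (0.68 and 0.70) had high values in both. The libraries share mice in pairs, no test was made, and the part of cell makeup, dissection or depth in this spread was not tested.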
